A study of Homo sapiens with 6 samples.

Results

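Integrins are cell-surface receptors for the extracellular matrix. Here 10 of their subunit genes (5 alpha: ITGA2, ITGA3, ITGA5, ITGA6 and ITGAV; 5 beta: ITGB1, ITGB3, ITGB4, ITGB5 and ITGB8) were followed in MDA-MB-231 cells, an established line of triple-negative human breast cancer. They were taken from a table that names 19775 genes. The genes were chosen by name, and every probe set with one of them as its only annotated symbol was included, which gave 35 of the 54675 probe sets on the array. The cells had received the compound TCI04 at 50 µM or phosphate-buffered saline (PBS) as the control, both for 48 h and in DMEM with serum. TCI04 is known here only by its code name. Each group held 3 Affymetrix arrays, all from 1 cell line. Nothing in the labels ties an array to a culture of its own, so the p-values below cover only the spread between arrays, which could be technical.

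An integrin is a pair of 1 alpha and 1 beta subunit, each crossing the membrane once, and the pair sets which ligand is bound. ITGB1 joins with many alpha subunits, among them ITGA2 in a collagen receptor, ITGA3 and ITGA6 in laminin receptors and ITGA5 in the classical fibronectin receptor. ITGAV pairs with ITGB1, ITGB3, ITGB5 or ITGB8 and binds ligands that carry the short RGD peptide, such as vitronectin and fibronectin, or the latent form of TGF-beta. ITGB4 pairs only with ITGA6 and anchors epithelial cells to laminin through hemidesmosomes. Inside the cell the beta tails bind talin and kindlin, which switch the receptor on and link it to actin. In mesenchymal breast cancer cells integrins are studied for their part in adhesion, migration and invasion.

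None of the 10 genes passed the test in either direction. Of their 35 probe sets, 20 from 9 genes had a mean signal above the limit set for testing, the 40th percentile of all probe sets (a MAS5 signal of 37.0), and all 5 probe sets of ITGB8 lay below it. In limma, with p-values adjusted by the Benjamini-Hochberg method over 32746 probe sets, 0 of the 20 were higher and 0 were lower with TCI04 at an adjusted p under 0.05, where 0% of all tested probe sets were called higher and 0.00305% lower (1 probe set, that of the AP-1 gene FOS). The adjusted p of the 20 ran from 0.699 to 0.998. At an unadjusted p under 0.05 there were 2, the brightest probe sets of ITGA2 and ITGA6, both with higher means; 7.11% of all probe sets were under that value. A linear model on each probe set's own variance, without limma's moderation, gave 0 at the unadjusted threshold and 0 after adjustment. Over all 32746 tested probe sets that model gave 2066 at the unadjusted threshold and 0 after adjustment.

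The signs were mixed. With TCI04, 9 of the 20 probe sets had a lower and 11 a higher mean, while 56.2% of all tested probe sets had a lower and 43.8% a higher mean. The median log2 difference (TCI04 minus PBS, on log2(signal + 10.96)) was 0.016 for the integrin probe sets and -0.028 for all probe sets. Centring each array on its median instead moved the median of all probe sets to 0.13. It left 3 of the 20 integrin probe sets, and 28.7% of all tested probe sets, with a lower mean. The distance of the integrin median from that of all probe sets was 0.043. Centring moves every difference by the same amount and so cannot change this distance. After quantile normalization it was 0.030. In 3 probe sets every TCI04 array lay above every PBS array (1 each of ITGA2, ITGA6 and ITGB1), and in 0 every TCI04 array lay below; over all tested probe sets these shares were 5.34% and 8.21%.

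**Figure D1:**
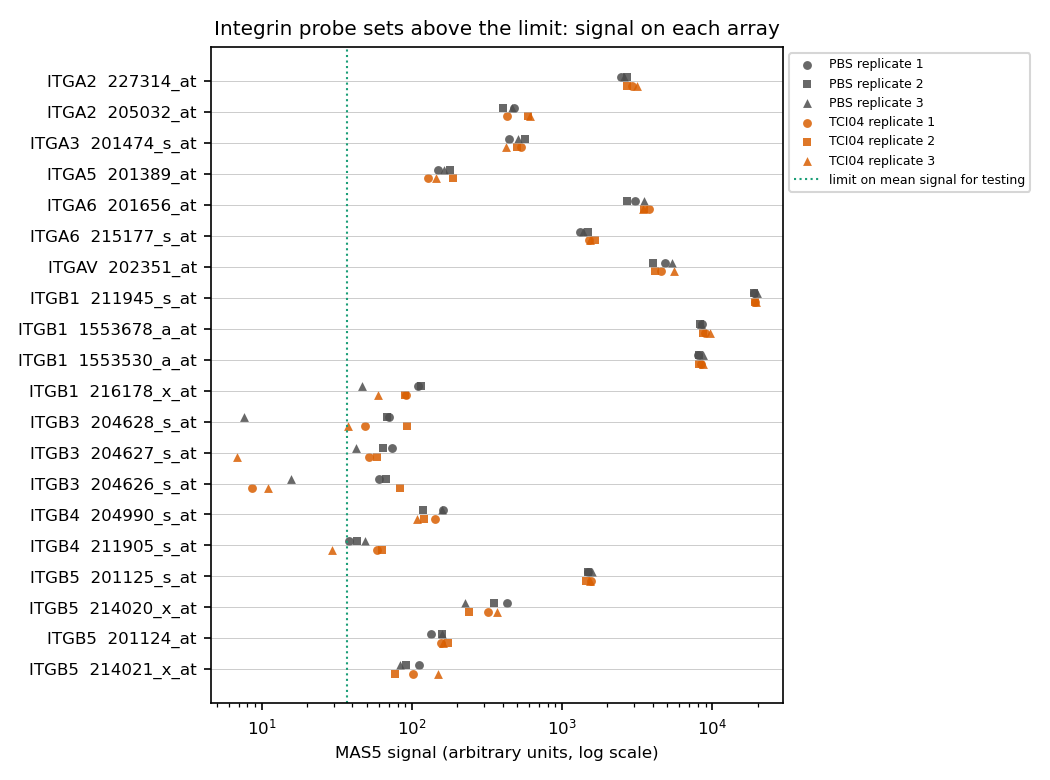
MAS5 signal (log axis) of the 20 integrin probe sets tested, with 1 symbol per array, grey for PBS and orange for TCI04; the dotted line is the limit on the mean signal, 37.0. The groups overlap in 17 of the 20 rows, and the spread between arrays is widest in the dim rows of ITGB3.

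The arrays themselves had the same trimmed mean signal (500.1), and their median signals were 64.0 to 74.3 with PBS and 58.9 to 59.8 with TCI04. On TCI04 replicate 3 the ratio of 3' to 5' signal of the ACTB control, a measure of RNA integrity, was 3.33, against 1.64 to 1.72 on the other 5 arrays (exact permutation test between groups, two-sided, p = 0.3, where the smallest p possible is 0.1). The ratio of the GAPDH control was 1.21 on TCI04 replicate 3 and 0.973 to 1.08 on the other 5 arrays (exact permutation test, two-sided, p = 0.6). TCI04 replicate 3 held the highest value of 5 and the lowest of 4 of the 20 integrin probe sets. The cell line's mesenchymal markers were all above the limit (7 of 7, with VIM, CAV1 and ANXA1 the brightest), with summed signals of 114998 to 123009 with PBS and 116877 to 119216 with TCI04. Of the luminal epithelial markers 6 of 8 were above it, KRT19 and GATA3 being the brightest, but the adherens junction gene CDH1 was at 1.78 to 5.15 with PBS and 3.83 to 21.0 with TCI04, and their summed signals overlapped between the groups (3041 to 3482 and 2261 to 3290). Above the limit were also 4 of 7 markers of leukocytes and platelets (brightest ITGB2, CD3E and ITGAM, while PTPRC, CD14 and GP9 lay below it), 1 of 5 of endothelium and 2 of 5 of fibroblasts. The summed leukocyte and platelet signal was 364 to 444 with PBS and 245 to 409 with TCI04, and that of fibroblasts 561 to 577 and 474 to 700.4, with overlap in both. The endothelial sum was 278 to 291 with PBS and 220.5 to 268 with TCI04, without overlap, and its part in the integrin values was not tested. Most of that sum was a single PECAM1 probe set, at 184 to 191 with PBS and 141 to 172 with TCI04. CDH5, VWF, KDR and TEK lay below the limit. In RNA from whole cultures, fewer cells of a kind and less RNA per cell cannot be told apart.

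Among the alpha subunits, ITGA2, which with ITGB1 forms a collagen receptor, is read by 2 probe sets, and both had a higher mean with TCI04. The brighter one measured 2479, 2708 and 2573 on the PBS arrays and 2905, 2717 and 3155 on the TCI04 arrays. The groups did not overlap, although TCI04 replicate 2 lay only just above PBS replicate 2. Its log2 difference was 0.18 ± 0.07 (standard error), the 95% interval being 0.01 to 0.34 (limma, unadjusted p = 0.039, adjusted p = 0.699), so the data allowed a level from 1.01 to 1.27 times that with PBS. The dimmer probe set measured 474, 402 and 461 with PBS and 425, 588 and 611 with TCI04. Here TCI04 replicate 1 lay among the PBS arrays, and the log2 difference was 0.26 with an interval from -0.06 to 0.58 (limma, adjusted p = 0.702). Without TCI04 replicate 3, which held the highest value of both, the differences were 0.12 and 0.17.

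ITGA6, a laminin receptor subunit that joins with ITGB1 or ITGB4, showed the same sign in both of its probe sets. Signals of the brighter one were 3053, 2694 and 3514 with PBS and 3757, 3512 and 3473 with TCI04. PBS replicate 3 reached the range of the TCI04 arrays, so the groups overlapped. The log2 difference was 0.22 ± 0.09 (standard error), the interval 0.02 to 0.42 (limma, unadjusted p = 0.0357, adjusted p = 0.699). The other probe set measured 1306, 1491 and 1375 with PBS and 1505, 1658 and 1523 with TCI04, a log2 difference of 0.17 (interval -0.01 to 0.35, adjusted p = 0.699). The groups of that probe set did not overlap, with 1491 as the highest PBS and 1505 as the lowest TCI04 value. Without TCI04 replicate 3 the values were 0.24 and 0.18. For ITGA6, as for ITGA2, a 1.5-fold change in either direction lay outside the interval of every probe set on the reported scaling. The interval of the dimmer ITGA2 probe set only just cleared it, ending at 1.498 times. Intervals with arrays centred on their medians, which moves all differences up, are not given here.

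ITGA3, the other laminin-binding alpha subunit, had 1 probe set, at 442, 563 and 505 with PBS and 530, 497 and 421 with TCI04. The groups overlapped almost fully, and the log2 difference was -0.06 (interval -0.34 to 0.22, adjusted p = 0.921). It was 0.03 without TCI04 replicate 3, the lowest of the 6 arrays for this gene, and 0.02 without PBS replicate 2.

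The 2 alpha subunits of RGD-binding receptors also had 1 probe set each. ITGA5, the partner of ITGB1 in the fibronectin receptor, was dim, at 149, 178 and 164 with PBS and 128, 188 and 143 with TCI04. The highest and the lowest of the 6 values were both from TCI04 arrays, and the log2 difference was -0.10 with an interval from -0.51 to 0.31 (adjusted p = 0.905). ITGAV, the alpha subunit shared by the vitronectin receptors, measured 4807, 4027 and 5414 with PBS and 4557, 4153 and 5513 with TCI04. Both groups covered nearly the same range, with means of 4749 ± 695 and 4741 ± 698 (SD, n = 3 arrays each). The log2 difference of ITGAV was -0.002 with an interval from -0.27 to 0.26 (adjusted p = 0.998).

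ITGB1, the beta subunit with the most partners, had 7 probe sets, 4 of them tested. The brightest measured 19009, 18966 and 19801 with PBS and 19336, 19239.5 and 19469 with TCI04. All TCI04 values fell between the lowest and the highest PBS value, with means of 19259 ± 470.4 and 19348 ± 115. Its log2 difference was 0.007 ± 0.05 (standard error), the interval -0.10 to 0.11, that is 0.934 to 1.08 times the level with PBS (limma, adjusted p = 0.978).

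A second bright ITGB1 probe set was at 8035, 8129 and 8699 with PBS and 8447, 8168 and 8659 with TCI04 (log2 difference 0.02, interval -0.10 to 0.15). The third was at 8551, 8266 and 8343 with PBS and at 8858, 8667 and 9679 with TCI04. In this one every TCI04 array lay above the PBS arrays, with the widest step on TCI04 replicate 3, and the log2 difference was 0.11 (interval -0.02 to 0.24, limma, adjusted p = 0.702) or 0.06 without that array. The fourth, under 120 on every array, gave -0.09 with an interval from -0.83 to 0.65, which turned to 0.09 without TCI04 replicate 3. A probe set's brightness depends on its probes as well as on the transcript, so signals of different probe sets, and of different genes, were not ranked as amounts of RNA.

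**Figure D2:**
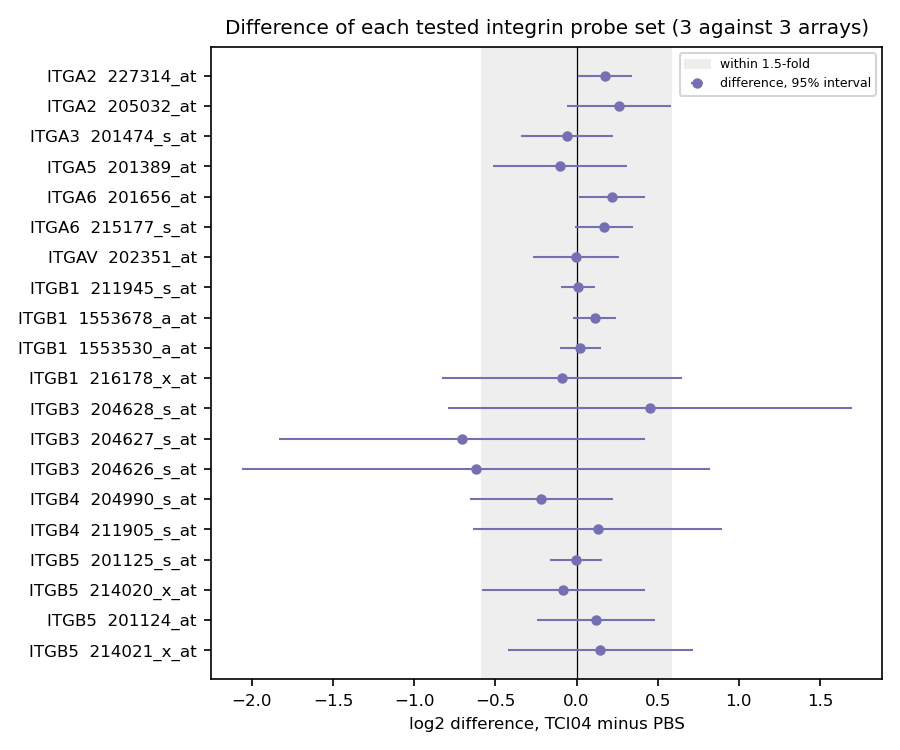
Log2 difference (TCI04 minus PBS) of the 20 tested integrin probe sets, with points for the estimate and bars for its 95% interval from 3 against 3 arrays; the grey band marks changes of less than 1.5-fold. Bars of the bright probe sets lie inside the band, and those of ITGB3 are the widest.

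ITGB5, which joins ITGAV in a vitronectin receptor, had 4 probe sets, all tested. The brightest measured 1473, 1483 and 1571 with PBS and 1543, 1449 and 1530.2 with TCI04. The groups overlapped, and the log2 difference was -0.002 with an interval from -0.16 to 0.16 (limma, adjusted p = 0.998). The others gave -0.08, 0.12 and 0.15, with intervals that each held 0, and -0.21, 0.13 and -0.08 without TCI04 replicate 3, so that the last of them turned. The first of these 3 spread widely within the PBS group, from 225 to 425.

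ITGB3, the other classical partner of ITGAV and also the beta subunit of the platelet fibrinogen receptor, had 7 probe sets, of which 3 passed the limit, and these did not give the same sign. The brightest measured 69.9, 67.6 and 7.55 with PBS and 48.7, 92.7 and 37.5 with TCI04, a log2 difference of 0.45 (interval -0.79 to 1.69, limma, adjusted p = 0.854), which turned to -0.25 without PBS replicate 3, the array at 7.55. The next measured 73.6, 63.7 and 42.1 with PBS and 51.9, 58.2 and 6.84 with TCI04. It gave -0.70 (interval -1.83 to 0.42), which went to -0.08 without TCI04 replicate 3, the array at 6.84. The last gave -0.62 with an interval from -2.06 to 0.82, or -0.30 without TCI04 replicate 3. Single arrays near 7 set the direction of the first and the size of the second, and the widest of these intervals ran from 0.239 to 1.77 times the PBS level, or, for the first probe set, from 0.576 to 3.24 times. The intervals of the first and the last probe set thus held a change of 1.5-fold in either direction. That of the second, from 0.280 to 1.34 times, held a 1.5-fold fall but not a 1.5-fold rise.

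ITGB4, the hemidesmosome subunit that pairs with ITGA6, had 2 of 5 probe sets above the limit. The brighter one measured 161, 117 and 159 with PBS and 143, 119 and 108 with TCI04. PBS replicate 2 lay within the TCI04 range, and the log2 difference was -0.22 with an interval from -0.66 to 0.23 (limma, adjusted p = 0.802). The dimmer one, at 38.1, 43.2 and 48.3 with PBS and 58.0, 63.1 and 29.4 with TCI04, gave 0.13 in the opposite direction (interval -0.64 to 0.90). Leaving out TCI04 replicate 3 moved these to -0.13 and 0.40.

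ITGB8, which with ITGAV binds latent TGF-beta, had no probe set above the limit. Its brightest measured 33.6, 32.2 and 18 with PBS and 30.8, 37.2 and 25.4 with TCI04, with overlapping groups, and the other 4 stayed between 1.65 and 41.3 on all arrays. The remaining 10 probe sets below the limit belonged to ITGB1 (3), ITGB3 (4) and ITGB4 (3). Over all 15, signals ran from 0.511 to 63.6. In 0 of them did the groups separate in either direction. The share over all probe sets below the limit was not counted, so this 0 has no background to be read against. For the genes with bright and dim probe sets, such as ITGB1, the dim ones carry the same symbol but gave no usable level.

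**Figure D3:**
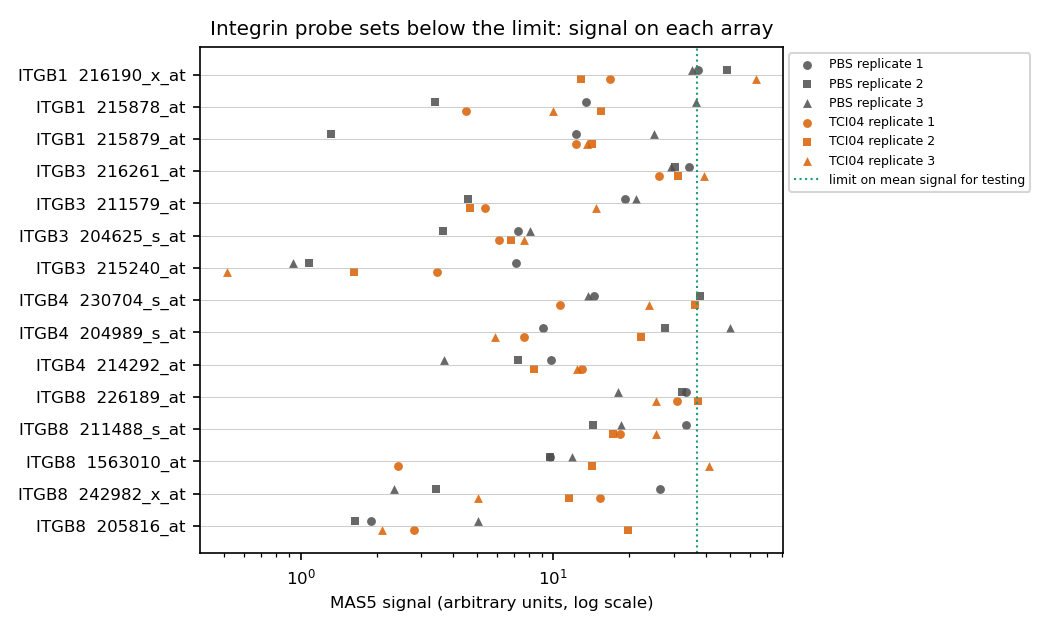
MAS5 signal (log axis) of the 15 integrin probe sets below the limit of 37.0 (dotted line), with 1 symbol per array. PBS (grey) and TCI04 (orange) overlap in every row, and values of 1 probe set can differ more than 10 times between arrays of a group.

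The precision of these comparisons followed the signal. Of the 20 tested integrin probe sets, 13 had a 95% interval that lay wholly within 1.5-fold in both directions, against 55% of all tested probe sets. A division at a mean signal of 200, made after the values had been seen, put 11 probe sets above it, of ITGA2, ITGA3, ITGA6, ITGAV, ITGB1 and ITGB5. Their log2 differences ran from -0.08 to 0.26. On the reported scaling all of these 11 had an interval within 1.5-fold (89.2% of all probe sets above 200 did). Of the 9 dimmer ones, 2 had it, and their differences ran from -0.70 to 0.45. The standard deviation of log2 values within a group was 0.025 to 0.39 in the brighter and 0.11 to 1.08 in the dimmer probe sets.

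By receptor, the pairs with a bright signal on both sides can be set side by side. For the collagen receptor the values were 0.18 for ITGA2 and 0.007 for ITGB1. In the laminin receptors ITGA3 was at -0.06 and ITGA6 at 0.22, and in the vitronectin receptor ITGAV and ITGB5 were both at -0.002. The differences between partners were not tested, since they are read by different probes.

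The other 16 integrin subunit genes include the leukocyte integrins and the receptors of muscle and epithelium. Of the 15 with a probe set, 7 were above the limit, 0 were called in either direction (0.0073% of all genes were called), 1 had an unadjusted p under 0.05, and 4 had lower means. Their median log2 difference was -0.10, while over all genes 50.7% were lower and the median was -0.002 (13704 genes tested). For this list and the following ones, the share of all genes at an unadjusted p under 0.05 was not counted. Over all tested probe sets it was 7.11%. Without TCI04 replicate 3 the median of these subunits was -0.24, with 4 still lower. ITGAE, known from intraepithelial lymphocytes, where it binds E-cadherin, was the only one of the 7 with a mean signal above 200, at 6422, 6649 and 6896 with PBS and 6666, 6675 and 7198 with TCI04. Its groups overlapped, with a log2 difference of 0.04 (interval -0.09 to 0.17). ITGA10, a collagen-binding subunit of cartilage, and ITGB2, the beta subunit of leukocyte integrins, came next in signal, with log2 differences of -0.16 (interval -0.69 to 0.36) and -0.45 (interval -1.01 to 0.10). ITGA4, ITGA7, ITGA8, ITGA9, ITGAD, ITGAL, ITGAX and ITGB7 were below the limit.

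Extracellular ligands of integrins were represented by 19 of 25 genes. Of these 0 were called in limma and 3 had an unadjusted p under 0.05, where 7.11% of all tested probe sets did. A lower mean was found in 10 and a higher one in 9. The median log2 difference was -0.003, which turned to 0.04 without TCI04 replicate 3 (9 lower). The matricellular protein CCN1, which binds ITGAV and ITGA6 receptors, measured 31191, 32894 and 31537 with PBS and 30759.5, 27913 and 32177 with TCI04, a log2 difference of -0.08 (interval -0.21 to 0.06). CCN2, a relative of CCN1, gave 0.05 (interval -0.06 to 0.17) and the matrix glycoprotein THBS1 gave 0.15 (interval -0.13 to 0.42).

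Integrin activators, adaptors and adhesion kinases formed the largest list, with 33 of 37 genes tested. There were 0 calls and 2 genes with an unadjusted p under 0.05, with 15 lower and 18 higher means, and a median of 0.015, which turned to -0.002 without TCI04 replicate 3 (18 lower). Its genes with the highest signal were the actin crosslinker ACTN1 (log2 difference 0.02, interval -0.19 to 0.23), the small GTPase RAP1B, which promotes integrin activation (0.006, interval -0.13 to 0.14), and vinculin, VCL, which ties talin to actin (0.04, interval -0.07 to 0.15). VCL measured 9299.8, 9379 and 9515 with PBS and 9639, 9649 and 9703 with TCI04, so that its groups did not overlap although the step between them was small.

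Membrane partners and trafficking proteins had 21 of 22 genes tested, with 0 calls, 2 genes with an unadjusted p under 0.05, 14 lower and 7 higher means and a median of -0.026. With arrays centred on their medians 4 of the 21 had a lower mean, as did 28.7% of all tested probe sets. Without TCI04 replicate 3 the count of lower means was 11, with a median of -0.009. Leaving out other single arrays gave 10 (without PBS replicate 2) to 14. The caveolar protein CAV1 was at -0.03 (interval -0.15 to 0.09), and the tetraspanins CD9 and CD63 at 0.12 (interval -0.02 to 0.27) and -0.01 (interval -0.14 to 0.12).

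Among the hemidesmosome partners of ITGA6 and ITGB4, all 4 genes tested were lower by their means, the median was -0.25, and 0 were called, with 0 at an unadjusted p under 0.05. The model without moderation called 0 probe sets in the whole table, and so 0 in each of these lists. The linker protein DST gave -0.04 (interval -0.19 to 0.10), the laminin chain LAMB3 -0.19 (interval -0.43 to 0.04) and the tetraspanin CD151, which binds laminin-receptor integrins, -0.31 (interval -0.66 to 0.04, limma, adjusted p = 0.699). CD151 measured 1115, 1077 and 963 with PBS and 986, 973 and 623 with TCI04. The low value belonged to TCI04 replicate 3, the array with the high ACTB ratio. Without it 3 of the 4 were lower, the median was -0.08 and CD151 was at -0.10.

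**Figure D4:**
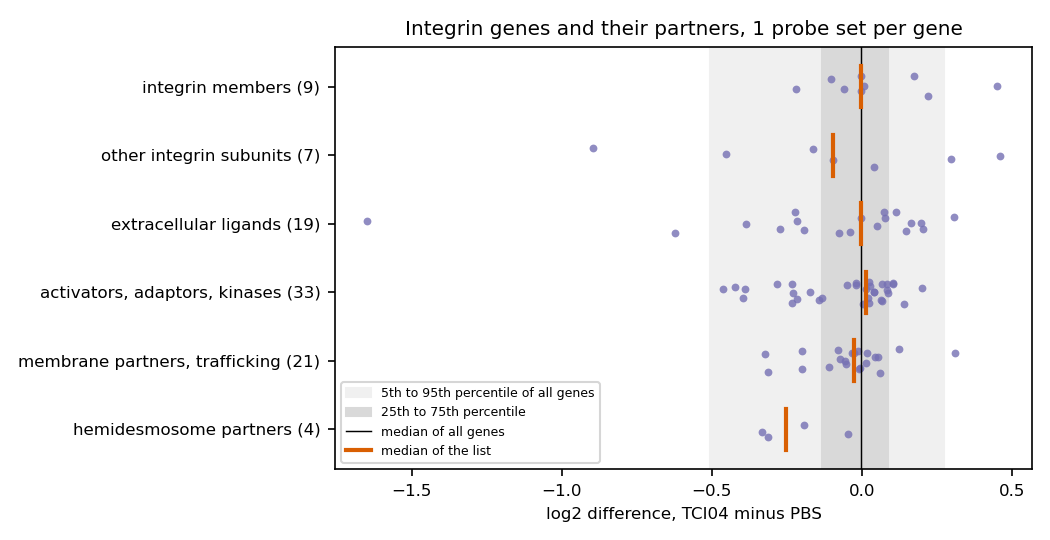
Log2 difference (TCI04 minus PBS) of each tested gene, by its brightest probe set, for the integrin genes and 5 lists of partners, with the number of genes in parentheses; grey bands show the range of all genes and orange bars the median of each list. Medians lie between -0.25 (4 hemidesmosome partners) and 0.015 (33 adaptors and kinases), and no gene shown passed the adjusted threshold.

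The genes whose pattern over the 6 arrays was most like that of the brightest ITGB1 probe set, among 13703 others, were TMEM143 (Pearson r = 0.989, Spearman rho 0.943), LRRC15 (0.988 and 0.943) and IPMK (0.985 and 1). ITGB1 itself ran only from 18966 to 19801 over these arrays. The 3 others were dim, TMEM143 at 55.2 to 120, LRRC15 at 24.0 to 112 and IPMK at 170 to 242. With 6 points and so many genes the likeness is a description of these arrays. Among the other tested members, r with ITGB1 was 0.800 for ITGB5, 0.733 for ITGAV, 0.699 for ITGA6, 0.213 for ITGA2 and 0.183 for ITGB4. It was below 0 for ITGA3 (-0.147), ITGA5 (-0.181) and ITGB3 (-0.876), the last being the farthest from 0. PBS replicate 3 had the highest ITGB1 value, 19801, and the lowest of this dim ITGB3 probe set, 7.55 against 37.5 to 92.7 elsewhere. The r of ITGB3 without that array was not computed.

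**Figure D5:**
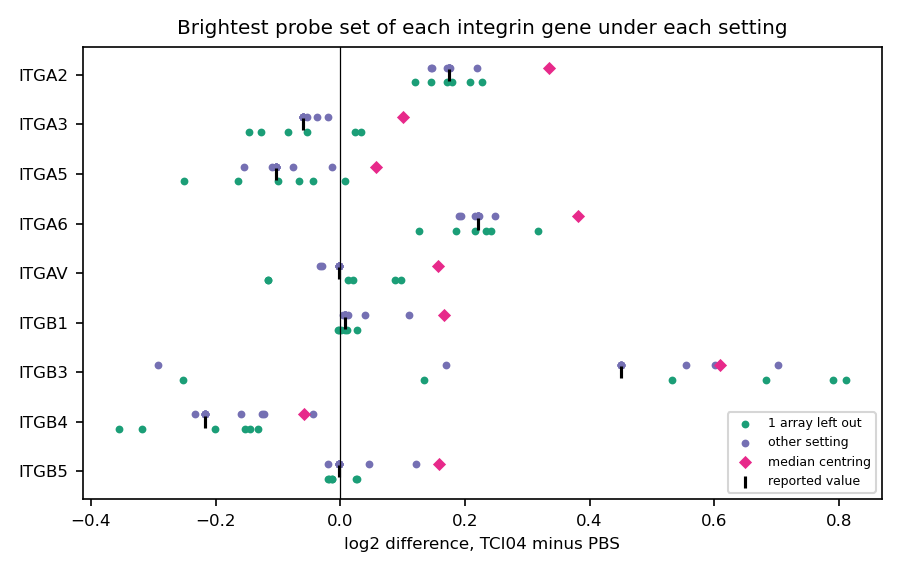
Log2 difference of the brightest tested probe set of each of 9 integrin genes as reported (black bar), with 1 array left out (green), with arrays centred on their medians (pink) and under other settings (purple). ITGA2 and ITGA6 stay above 0 and ITGB4 below 0 throughout, while the other 6 genes have points on both sides of 0.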

How the data were processed

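The authors deposited intensity values, MAS5 signals on a linear scale with 1 value per probe set and array, per the submitters' processing notes and the values. Each array had the same mean (500.1) once 2% of values at each end were dropped. The sources used here give neither detection calls nor a software version. Platform annotation gave 1 symbol to 41097 probe sets, several to 1801 and none to 11777, and only the first were named. Coordinates were not used, since the array's genome build is not given in the sources used here.

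Signals were turned into log2(signal + 10.96), the 20th percentile being the offset. The 62 control probe sets and those with a mean below the 40th percentile were left out. A linear model with a moderated, trended variance was fitted to all 32746 others in R 4.3.3, using limma 3.58.1 and two-sided tests. Fold changes on this scale understate the change of dim probe sets. The steps were tested on simulated data of 3 against 3 arrays with 32746 probe sets and independent noise. Changes were placed only in probe sets at or above the median of the mean signals. Spread was smoothed over probe sets of like signal. Of the placed changes, 63.6% of the 1.5-fold and 86% of the 2-fold ones were recovered, with 6.0 false calls per simulation. Each simulation held 200 placed changes, and its smoothed spread leaves out differences in spread between probe sets of like signal. The rates therefore do not give the power of the real comparison, which was not tested. These rates do not cover dimmer probe sets, among them the tested ones of ITGB3 and the dimmer tested one of ITGB4.

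All members and probe sets are reported. Of related lists, called genes or else the 3 with the highest signal are named, and for ITGB1 the 3 genes with the highest r. A gene stands for its brightest tested probe set. Members and lists were chosen with earlier results of these data known.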

Additional observations from a re-analysis of the deposited data

How the results depend on the processing

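The alternatives gave 167 values for the 9 integrin genes, of which 19 turned sign; of the 158 that had a test, 0 passed. ITGA2 (0.120 to 0.335), ITGA6 (0.127 to 0.381) and ITGB4 (-0.355 to -0.044) kept theirs. With median centring ITGA3 was 0.101, ITGA5 0.057, ITGAV 0.157 and ITGB5 0.158, 3 integrin probe sets had a lower mean, 4 membrane partners did, and 0 probe sets were called lower (1 as reported). This centring moves all values up, as its construction gives, and 28.7% of all tested probe sets then had a lower mean. With single arrays left out the ranges were -0.147 to 0.034 for ITGA3, -0.250 to 0.008 for ITGA5, -0.116 to 0.097 for ITGAV, -0.004 to 0.027 for ITGB1, -0.252 to 0.811 for ITGB3 and -0.019 to 0.027 for ITGB5. ITGB3 turned without PBS replicate 3. The call on the lower side ranged from 0 to 1, and the other integrin subunits with a lower mean from 2 (without PBS replicate 1) to 4. Averaging over the probe sets of each gene gave -0.292 for ITGB3 and 0.046 for ITGB5, and without probe sets ending in _x_at or _s_at ITGB5 was 0.122. Without the filter 15 of 35 integrin probe sets had a lower mean, as did 58.7% of all probe sets. With the filter at the 60th percentile 2 other integrin subunits had a lower mean, fewer being tested. eBayes without trend and the ordinary t-test called 0 probe sets lower. The causes of the other changes were not tested. The alternatives for the lists of partners were added after the data had been seen.

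Same-numbered arrays of the groups had correlations of their deviations of 0.007, 0.068 and 0.055, so the numbers were not taken to pair the arrays, although every array correlated best with its own number. With the replicate block 0 integrin probe sets and 1 probe set in all were called, and the smallest adjusted p of an integrin probe set was 0.528. Signal over background limits what can be said of ITGB8, whose 5 probe sets all lay below the limit for testing, and of ITGB3 and ITGB4, with 4 of 7 and 3 of 5 below it. The number of arrays limits the precision of all genes.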

Other observations

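Some partners of the integrins had an unadjusted p under 0.05 without passing the correction (limma, adjusted p = 0.699 each); they were chosen after their values were seen. FN1, which encodes fibronectin, the main ligand of the receptor of ITGA5 and ITGB1, measured 1781, 1634 and 1826 with PBS and 1478, 1327 and 1535 with TCI04 in its brightest probe set, a log2 difference of -0.27 with an interval from -0.46 to -0.09. Its other tested probe sets gave -0.17, 0.015, -0.35, -0.43 and -0.44. LAMA5, a laminin chain bound by ITGA3 and ITGA6 receptors, measured 1346, 1396 and 1207 with PBS and 1191, 829.99 and 1017 with TCI04, a log2 difference of -0.39 with an interval from -0.66 to -0.11. Every TCI04 array of FN1's brightest probe set and of LAMA5 lay below every PBS array.

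SLC3A2, the CD98 heavy chain that binds beta integrin tails, had a log2 difference of -0.32, or -0.18 without TCI04 replicate 3, its lowest array. The kinase SRC, which acts with focal adhesion kinase below integrins, gave -0.42 in its brightest probe set and -0.19 in its other tested one. PARVA, an actin-binding partner of integrin-linked kinase, gave 0.20, and its 6 other tested probe sets gave -0.05 to 0.19. NRP1, a membrane partner of integrins, gave 0.31 in its brightest probe set and 0.07, -0.14 and -0.99 in dimmer ones. COL1A2 and the leukocyte subunit ITGAM gave -1.65 and -0.90 at mean signals under 80, and the other probe sets of both were below the limit for testing.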
